A study of Mus musculus with 16 samples.

Results

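The 10 genes described here encode the machinery that turns an action potential into contraction in skeletal muscle and then clears the calcium: Ryr1, Cacna1s, Cacng1, Casq1, Casq2, Trdn, Jph1, Jph2, Atp2a1 and Atp2a2. They were taken by name from the 21938 protein-coding genes of GENCODE M21 on the mm10 genome, by a rule that uses no measured value. The set was, however, chosen with earlier results of these data known. For each gene, every ATAC-seq peak that overlapped its gene body or the 20 kb on either side was collected. Peaks of 14 libraries that overlapped one another were merged into regions, of which 76 of 80290 lay in these windows, or 24 of 26213 when each library kept its strongest peaks alone. In lists of equal length the 10 windows held a mean of 9.50 ± 1.29 peaks in growth medium without doxycycline (SD, n = 4 libraries) and 12.5 ± 2.08 with it (n = 4). In differentiation medium the means were 9.67 ± 1.15 without doxycycline (n = 3) and 12.3 ± 2.52 with it (n = 3), and no single gene separated its groups in these lists.

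In a resting muscle fiber calcium is stored in the sarcoplasmic reticulum. A voltage change in the transverse tubule moves the voltage sensor Cav1.1, whose pore subunit is encoded by Cacna1s and whose gamma subunit is encoded by Cacng1, and Cav1.1 opens the ryanodine receptor encoded by Ryr1 so that stored calcium reaches the myofilaments. Junctophilins hold the membranes of tubule and reticulum together, triadin and the calsequestrins keep calcium near the release channel, and SERCA pumps return it to the store. ATAC-seq reads open chromatin, not transcription, so an open region near one of these genes does not tell whether the gene was transcribed.

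Chromatin accessibility was measured in C2C12 iMyoD1, a polyclonal population of the mouse myoblast line C2C12 that keeps its endogenous MyoD1 and carries a doxycycline-inducible Halo-MyoD1 transgene, so all 4 groups share both. GM no dox and GM +dox cells stayed in serum-rich growth medium and received vehicle or doxycycline for 24 h, and DM no dox and DM +dox cells were moved to differentiation medium, with its serum withdrawn, for the same 24 h with vehicle or doxycycline. Seeding density differed too, at 75000 cells for a GM well and 300000 for a DM well, so medium and density cannot be told apart, and doxycycline itself cannot be told apart from the MyoD1 it induces. Each group had 4 biological replicates. Only a fraction of the cells in such a population turn the transgene on, and in these bulk libraries a region that is open in fewer cells cannot be told apart from one that is less open in each cell.

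The first replicate of each DM group was left out, as in the study's methods. That leaves 14 libraries. The lists of DM no dox replicate 1 and DM +dox replicate 1 held 1287 and 14236 peaks, and the other 14 held 14710 to 58587. List length differed between groups, with means of 31702 ± 15675 in GM no dox, 46863 ± 9083 in GM +dox, 29490 ± 9624 in DM no dox and 49026 ± 2582 in DM +dox. Depth was read as background coverage in fragments per base, recovered from the deposited fold and p values: it spanned 0.339 to 0.992 in GM no dox and 0.377 to 0.866 in GM +dox, 0.511 to 0.901 in DM no dox and 0.732 to 1.13 in DM +dox. Because a longer list holds more weak peaks at any gene, each comparison was made in all deposited peaks and in the 14710 strongest peaks of every library, the length of the list of GM no dox replicate 1. The last peak kept from that library had a −log10 p of 3.94, against 11.7 to 54.6 in the other 13 libraries, so its equal-length list includes peaks that would not have been kept elsewhere.

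The label of a skeletal myoblast was checked at the start sites of marker genes. Chrna1, the alpha subunit of the muscle acetylcholine receptor, and Myod1 had a strong peak within 1 kb of a start in 14 of 14 libraries. The transgene carries MyoD1 coding sequence, so at Myod1 reads from the cassette cannot be told apart from reads of the gene. Des had a peak in 13 libraries, Cdh15 in 10 and Myf5 in 6 when all deposited peaks were used. Myog, the myogenin gene that marks commitment to differentiation, had none in any group. Ptprc and Cd3e of blood cells, Epcam and Krt5 of epithelium, Cdh5 of endothelium, Neurod1 of neurons and Alb of liver had no peak at a start in any of the 14 libraries.

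Of the 76 regions, 7 had a peak in all 14 libraries (9.21%, against 13.8% of all 80290 regions) and 23 reached the strongest peaks of at least 1 library (30.3%, against 32.6% of all). A peak in 1 library alone made up 15 of them. By position, 28 had their highest summit in an intron of the member and 14 lay within 1 kb of an annotated start of the member. Another 9 lay within 1 kb of the start of another protein-coding gene, 4 were at an exon of the member, 7 in the body of another gene and 14 between genes. Strong peaks were therefore not always the member's own: those at the starts of Rabep2, Sh2b1, Ascl5, Kif21b and Pea15a lie inside these windows and are counted with the member. In the map of regions against the distance from each gene's start, the largest dark points sit at the start of Jph1, inside Jph2 and at both ends of the Atp2a1 window, whereas the row of Ryr1 is pale throughout.

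**Figure D1:**
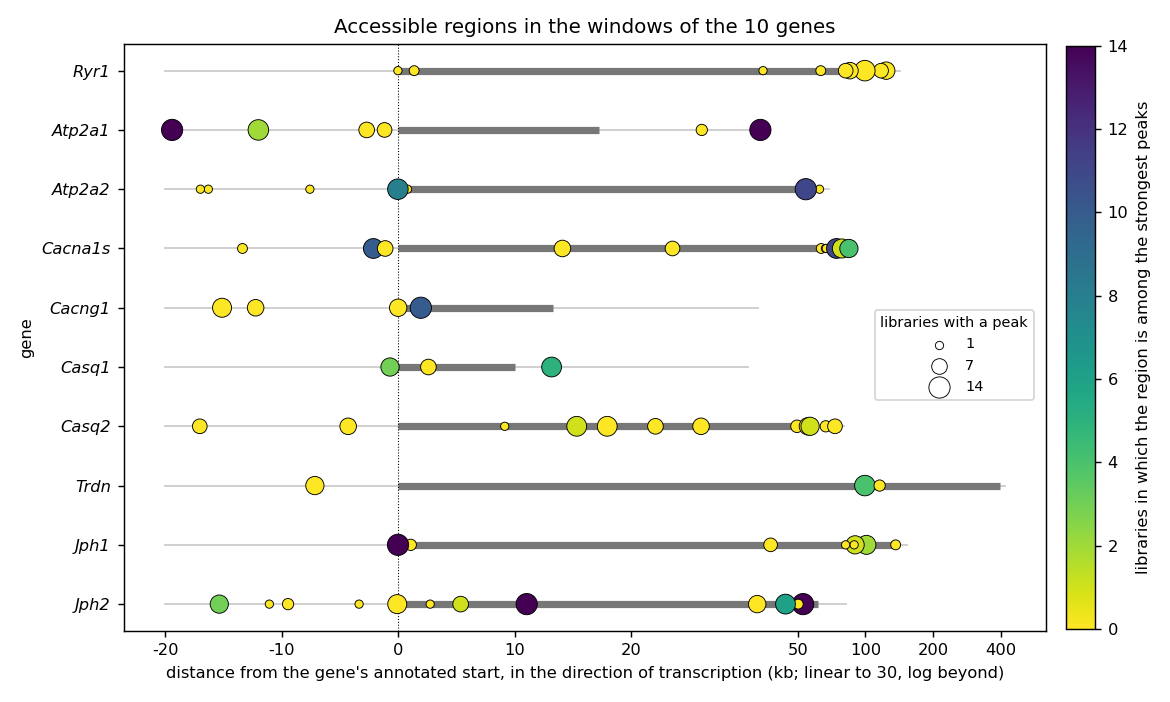
Accessible regions in the windows of the 10 genes, placed by the distance of the highest summit from the gene's annotated start (kb, linear to 30 kb and logarithmic beyond), with gene bodies as thick grey lines and the 20 kb flanks as thin ones. Point size gives the number of the 14 libraries with a peak and color the number in which the region is among the 14710 strongest peaks. Dark points at 14 of 14 appear at Jph1, Jph2 and Atp2a1, and none of the 9 points of Ryr1 is dark.

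Within 100 bases of the highest summit, CAGCTG, the E-box that MyoD1 prefers, was found in 17 of the 76 regions (22.4%, against 19.6% of all regions). Any E-box, written CANNTG and including CAGCTG, was found in 52 (68.4%, against 67.9%). The AP-1 site TGANTCA was found in 21 (27.6%, against 31.4%) and CATTCC, the TEAD site, in 17 (22.4%, against 17.5%). Both strands were searched, and the shares at the 10 genes lay close to those of the genome. A MEF2 site stood in 1 region (1.32%), an intron of Jph2, against 0.579% of all regions. A CArG box, the site bound by serum response factor, stood in 1 region (1.32%) past the end of Jph1, against 1.07% of all.

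Apart from the regions at the members' own starts, the regions named with each gene were chosen after their values were seen, and they are described without a test.

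The question behind the doxycycline comparisons is how far added MyoD1 opens chromatin at these genes. In growth medium, lists of equal length, the 10 windows held 11, 9, 10 and 8 peaks in GM no dox replicates 1 to 4 and 12, 10, 13 and 15 in GM +dox replicates 1 to 4. The means differed by 3.00 peaks, and the groups overlapped, since GM +dox replicate 2, with 10, lay below GM no dox replicate 1, with 11. In differentiation medium the counts were 11, 9 and 9 in DM no dox replicates 2 to 4 and 15, 10 and 12 in DM +dox, a difference of 2.67 with overlapping groups. Both differences exceeded the pooled SD of the libraries (1.73 and 1.96), and a sum over chosen genes was given no test. The difference in DM was 1.33 without DM +dox replicate 2, below 1.96. In lists of 7355 peaks the differences were 0.75 in GM and 1.67 in DM, below 1.73 and 1.96. Both SDs come from the longer lists with every kept library. The spread of the libraries within these settings was not computed, so none of these differences was set against its own spread. The difference in GM was 1 peak over replicate numbers 1 and 2 and 5 peaks over numbers 3 and 4, a split that the sample labels do not define. In all deposited peaks the totals were 11, 35, 19 and 46 against 59, 51, 47 and 43 in growth medium, and 19, 19 and 38 against 57, 45 and 54 in differentiation medium. Only the DM groups did not overlap there, since GM no dox replicate 4, with 46 peaks, lay above GM +dox replicate 4. Per 10000 deposited peaks, both pairs of groups were apart: 7.48 to 9.33 in GM no dox against 10.1 to 11.8 in GM +dox, and 7.86 to 9.36 in DM no dox against 9.73 to 11.1 in DM +dox. Scaling by list length was added after the data had been seen, and it leaves the lists at their own lengths. In the lists of at least 36531 peaks, cut to that length, GM no dox replicates 2 and 4 held 31 and 36. The GM +dox libraries held 36, 42, 41 and 43, so these groups met at 36. DM no dox kept 1 such list, with 36 peaks, against 40, 38 and 39 in DM +dox. The plot of totals by library shows the groups overlapping in the left panel and standing apart in the right one.

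**Figure D2:**
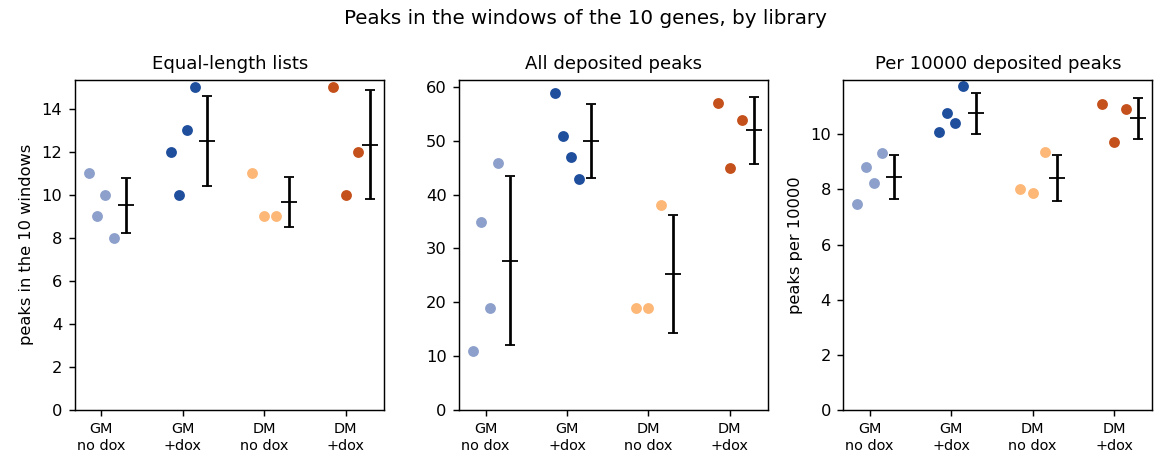
Peaks in the windows of the 10 genes in each of the 14 libraries, in lists of equal length, in all deposited peaks and per 10000 deposited peaks of the library. Points are libraries, and the bar beside each group is its mean ± SD (n = 4 in GM and n = 3 in DM); per 10000 peaks the +dox libraries lie at 9.73 to 11.8 and the no dox libraries at 7.48 to 9.36.

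For single genes, lists of equal length gave no member whose doxycycline and vehicle libraries did not overlap in peak number. In growth medium that was 0 of 9 members with a peak, where 0.368% of 14143 genes separated in either direction, and in differentiation medium 0 of 8, where 2.18% of 13923 genes did. Of the members, 7 had a higher mean and 1 a lower mean with doxycycline in growth medium, against 33.7% and 32.9% of all genes tested. In differentiation medium 6 were higher and 1 lower, against 30.9% and 25.8%. The median difference of the members was 0.25 and 0.33 peaks, against 0 over all genes in both media. Exact permutation tests with Benjamini-Hochberg adjustment over all genes left no member and no other gene below 0.05, and the smallest p such a test can give is 0.0286 for 4 against 4 libraries and 0.1 for 3 against 3. At an unadjusted exact p under 0.05, 52 genes were counted in growth medium, none of them a member, and 0 in differentiation medium, where the design cannot reach it.

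All deposited peaks gave more. The mean was higher with doxycycline for all 10 members in both media, where it was for 87.4% and 84.6% of all genes. The median difference was 2 peaks in growth medium and 2.67 in differentiation medium, against 0.75 and 1 over all genes. In growth medium Ryr1 and Jph1 had more peaks in every +dox library than in any no dox library, 2 of 10 members against 1.33% of 17348 genes with a gain. In differentiation medium Ryr1, Jph1, Casq2, Atp2a1 and Cacng1 did, 5 of 10 against 19.7% of 17129 genes. With the 2 left-out libraries added back, all 5 of those members overlapped in DM. With flanks of 50 kb the DM groups of Jph1 overlapped too, and with flanks of 5 kb the difference in DM was 3.33 peaks at Casq2 and 1.67 at Atp2a1, still without overlap. The median window was 101 kb for the members and 57.4 kb for all genes, with those of Cacng1 and Atp2a1 just under the latter, and the part of window length was not tested. No gene of the genome separated downward in either comparison, and the +dox lists were longer on average. Scaled to 10000 deposited peaks, Ryr1, Jph1 and Cacna1s separated in growth medium (3 of 10, against 2.02% of all genes with a gain) and Ryr1, Casq2 and Cacng1 in differentiation medium (3 of 10, against 6.88%). On that scale 0.882% of genes in GM and 21.7% in DM separated downward, with no member among them. Ryr1 was the member that separated in both media before and after scaling. In the lists of at least 36531 peaks cut to that length, DM no dox kept 1 library. There Ryr1, Jph1, Casq2 and Cacng1 overlapped in DM, and Atp2a1 did not, at 4 peaks against 5, 5 and 5. With 1 library in a group, a gene separates whenever that library is the lowest or the highest. The share of all genes was not computed at this length, so these calls have no background.

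The comparison of doxycycline effects between media found no member with a different effect. In lists of equal length the effect in DM minus the effect in GM ran from −1.08 peaks at Jph2 to 0.50 at Casq2, and the permutation p, with medium permuted within each doxycycline arm, was 0.331 or more, with an adjusted p of 1 for all 9 members tested.

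Regions were then compared one at a time. In growth medium no region of the 10 genes had a peak in every library of 1 group and none in the other, among 20 in lists of equal length (0.287% of 23372 regions did) and among 66 in all deposited peaks (0.446% of 69455). In differentiation medium the equal-length lists also gave 0 of 19, where 1.61% of 21484 regions changed. All deposited peaks gave 8 of 65 regions with a peak in all 3 DM +dox libraries and in none of the 3 DM no dox libraries, where 5.37% of 63484 regions did. They lay at Atp2a1, Cacna1s, Cacng1, Jph2 and Ryr1, 1 each, and at Casq2, which had 3, and the 3 DM no dox lists end at 23690, 24181 and 40599 peaks, so that a weaker peak cannot be in them. None of the 8 regions was among the strongest peaks of any library.

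Ranks, a measure added after the data had been seen, use the order of the peaks as well as their presence. A region was called when every library of 1 group ranked it before every library of the other, with a missing peak taken as behind the end of its list. A short list still limits this, since a missing peak in it can only be placed after its end. Doxycycline gave 0 of 66 regions in growth medium (0.819% of 69455 in either direction). In differentiation medium it gave 4 of 65 regions with an earlier rank in DM +dox, where 2.68% of 63484 did. It gave 0 with a later one, where 2.95% did. These were 1 region in Jph2, 1 upstream of Cacng1 and 2 in the Cacna1s window, of which 1 lay at the start of Ascl5. The split of 4 and 0 did not hold in every setting: 8 ranked earlier and 2 later without DM no dox replicate 2, and 5 and 1 with flanks of 50 kb. Leaving out any other DM library also gave 1 or 2 later ones. Fewer libraries make separation easier by construction, and the shares of all regions in these settings were not computed.

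The step from growth to differentiation medium was compared with the doxycycline status held fixed. Without doxycycline the 10 windows held a mean of 9.67 peaks in DM and 9.50 in GM, a difference of 0.17 peaks that is well inside the pooled SD of 1.24. With doxycycline the means were 12.3 and 12.5. In lists of equal length 0 of 9 members separated without doxycycline (2.43% of 14224 genes did) and 0 of 8 with it (2.47% of 14030). In all deposited peaks 0 of 10 members separated in either comparison, against 0.225% of 16917 genes and 2.63% of 17497 genes, and no adjusted exact permutation p lay below 0.05, for members or other genes. At an unadjusted p under 0.05 there were 329 and 328 genes in lists of equal length, with no member among them. Of single regions, 0 of 20 were all-or-none without doxycycline in lists of equal length (2.03% of 23677 regions) and 0 of 56 in all deposited peaks (0.411% of 57467). With doxycycline the counts were 0 of 20 (2.21% of 22465) and 0 of 70 (1.81% of 75263). By rank, 0 of 56 regions separated without doxycycline (3.95% of 57467), but with doxycycline 5 of 70 ranked later in DM +dox than in GM +dox, where 3.96% of 75263 regions did. Those 5 were 2 regions of Jph2 and 1 each at Atp2a2, Cacng1 and Ryr1. None of the 70 ranked earlier in DM +dox, where 4.49% of all regions did. This split did not hold in every setting. It was 6 earlier and 8 later without replicate 2 of DM +dox, 5 and 7 without replicate 4 of GM +dox, and 1 and 6 when peaks were ranked by fold. Leaving out a library makes separation easier by construction, and the shares of all regions in these settings were not computed.

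**Figure D3:**
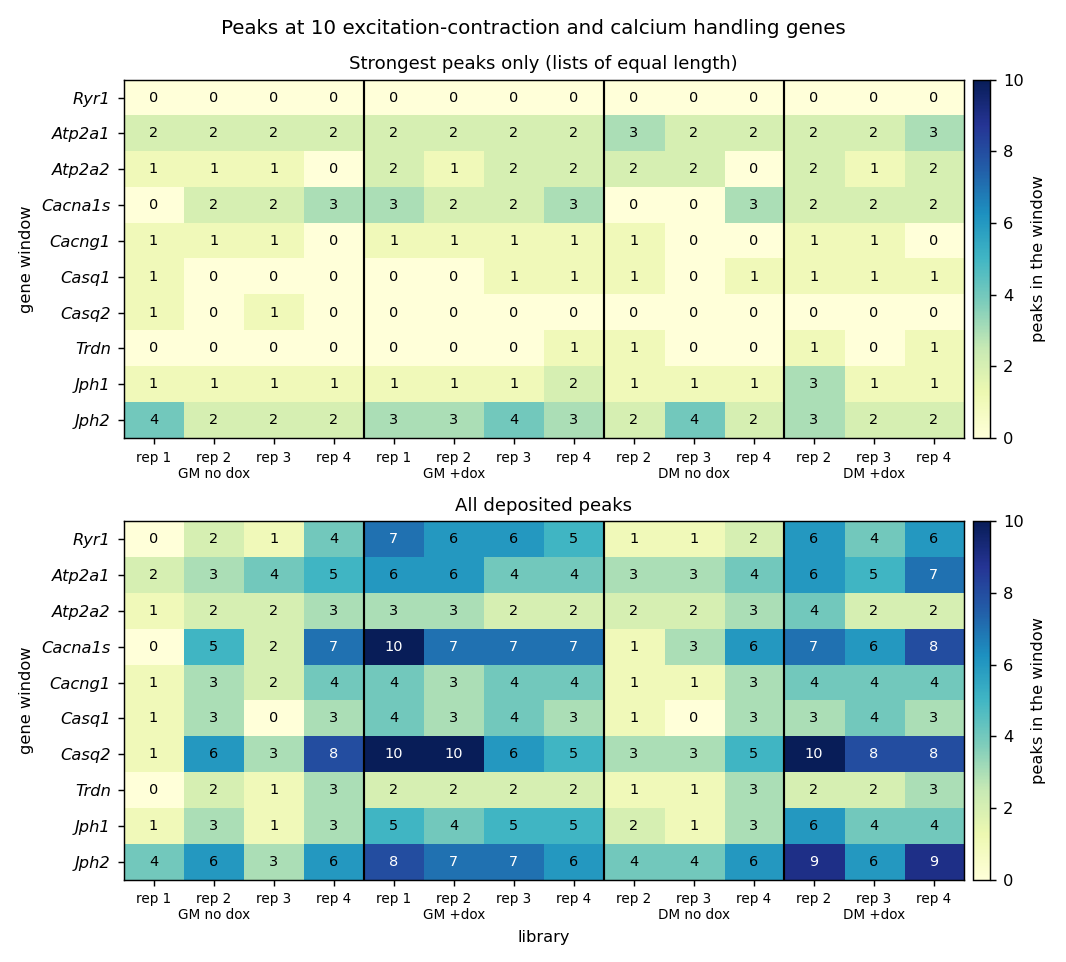
Number of peaks in each gene's window (rows) in each of the 14 libraries (columns, vertical lines between groups), for the 14710 strongest peaks of each library (top) and all deposited peaks (bottom). Color and number give the same count; Ryr1 is at 0 in the whole top panel and at 4 to 7 in the +dox libraries of the bottom panel.

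Jph1 and Jph2 encode junctophilins, which tie the transverse tubule to the reticulum, Jph1 mainly in skeletal muscle and Jph2 also in the heart. Jph1 lies on the minus strand at chr1:16964560-17097889. The region at its start, chr1:17097111-17098340, with its highest summit 40 bases upstream, was a strong peak in all 14 libraries, the only start region of a member for which this held. Its rank was 8551, 4973, 4320 and 5857 in GM no dox, 9477, 5995, 2496 and 3626 in GM +dox, 2805, 5887 and 4770 in DM no dox and 4082, 3019 and 3309 in DM +dox. The groups overlapped throughout. Its fold over background was 5.97 to 17.7 in GM no dox, 14.1 to 18.1 in GM +dox, 11.1 to 17.0 in DM no dox and 19.1 to 23.0 in DM +dox. The DM groups did not overlap in fold, which was higher in DM +dox at 9 of the 12 member regions with a peak in all 6 DM libraries and at 48.3% of 18106 such regions of the genome. That comparison of folds was added after the data had been seen.

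Beyond the start, Jph1 had more peaks with doxycycline in all deposited peaks. Its window held 1, 3, 1 and 3 peaks in GM no dox and 5, 4, 5 and 5 in GM +dox, 2, 1 and 3 in DM no dox and 6, 4 and 4 in DM +dox. The mean was 2.0 ± 1.15 and 4.75 ± 0.50 in growth medium (exact permutation p = 0.0286, adjusted p = 0.824) and 2.0 ± 1.0 and 4.67 ± 1.15 in differentiation medium (exact permutation p = 0.1, adjusted p = 0.509). Neither was below 0.05 after adjustment. Both p-values are the smallest that these numbers of libraries allow, and no gene had a lower adjusted p in either medium. In differentiation medium the test could not have reached 0.05. Per 10000 deposited peaks the GM groups stood apart, at 0.433 to 0.755 and 0.847 to 1.37, and the DM groups overlapped. In the lists of at least 36531 peaks cut to that length, both pairs of groups overlapped, with 3 and 2 peaks in GM no dox against 3, 4, 3 and 5 in GM +dox and 3 in DM no dox against 4, 4 and 3 in DM +dox. The added peaks were mostly weak. The region at 101 kb from the start, chr1:16996632-16997346, with its summit in an untranslated part of an exon, had a peak in 2 of 4 vehicle and 4 of 4 doxycycline libraries in GM and in 2 of 3 and 3 of 3 in DM, and ranked between 10622 and 29264. In lists of equal length the window held 1 peak in each no dox library and 1 to 3 with doxycycline.

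Jph2, on the minus strand at chr2:163336242-163397993, had 2 to 4 strong peaks in every library, the highest total of the 10 genes. Its start was not the open part. The region there, chr2:163397577-163398547, had a peak in 11 of 14 libraries and never ranked before 18570. Instead 2 introns carried peaks that were strong in all 14 libraries. The first was chr2:163386653-163387531, whose summit lay 11 kb into the gene, and the other chr2:163345004-163345493, at 52.8 kb.

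The sequences around these 2 summits are shown because both regions were strong peaks in all 14 libraries and each separated by rank in 1 comparison, and another window, 5.3 kb into Jph2, because it holds the only MEF2 site, whose letters are in capitals there. Capitals otherwise mark CANNTG. The RefSeq promoter, the 250 bases before the start of the first of 2 entries, is given beside them. Summit windows reach 100 bases to either side and all positions are on GRCm38, the assembly behind mm10. The windows at 52.8 and 11 kb and the promoter hold CAGCTG once, and 13.0% of the 32851 promoters of the same table hold it in those 250 bases.
Jph2 intron at 52.8 kb, chr2:163345086-163345286, plus strand: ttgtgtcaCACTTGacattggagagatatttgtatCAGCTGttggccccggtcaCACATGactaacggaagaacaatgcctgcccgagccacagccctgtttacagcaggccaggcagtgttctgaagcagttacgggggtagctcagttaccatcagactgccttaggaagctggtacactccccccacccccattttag
Jph2 intron at 11 kb, chr2:163386888-163387088, plus strand: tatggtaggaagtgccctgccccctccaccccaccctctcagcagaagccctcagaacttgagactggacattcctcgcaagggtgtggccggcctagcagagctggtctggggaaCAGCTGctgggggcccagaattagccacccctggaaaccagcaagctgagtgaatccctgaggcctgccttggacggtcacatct
Jph2 intron at 5.3 kb, chr2:163392554-163392754, plus strand: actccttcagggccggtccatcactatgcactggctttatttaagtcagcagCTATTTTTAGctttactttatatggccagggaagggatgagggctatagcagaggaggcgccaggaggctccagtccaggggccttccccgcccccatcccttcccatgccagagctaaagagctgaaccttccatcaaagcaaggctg
Jph2 promoter, chr2:163397994-163398243, minus strand: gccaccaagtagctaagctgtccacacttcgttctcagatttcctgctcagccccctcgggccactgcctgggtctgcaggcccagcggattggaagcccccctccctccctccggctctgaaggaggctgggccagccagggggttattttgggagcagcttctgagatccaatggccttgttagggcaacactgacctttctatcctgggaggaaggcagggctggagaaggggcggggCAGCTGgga

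The region at 52.8 kb ranked earlier with doxycycline. Its rank was 9761, 13337, 10723 and 6638 in GM no dox and 6746, 5705, 5525 and 3084 in GM +dox. It was 12088, 13226 and 11002 in DM no dox and 7157, 5530 and 5371 in DM +dox. The DM groups stood apart, and in GM a single library, GM no dox replicate 4, ranked it before 1 of the +dox libraries. Fold over background was 5.28, 11.8, 7.30 and 15.5 in GM no dox against 13.6, 18.3, 13.7 and 15.1 in GM +dox, and 8.29, 7.94 and 12.5 in DM no dox against 18.5, 18.0 and 17.6 in DM +dox. The folds overlapped in GM and did not in DM, as at most member regions with a peak in all DM libraries. The summit stood on 13 to 68 fragments in GM no dox, 55 to 83 in GM +dox, 13 to 49 in DM no dox and 64 to 104 in DM +dox. The region was picked out after its values were seen, so it carries no test.

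With doxycycline the region at 11 kb ranked earlier in GM than in DM. It ranked 2229, 1982, 963 and 1513 in GM +dox and 3587, 5758 and 10250 in DM +dox, and those groups did not overlap. Fold over background did overlap, at 21.6, 22.8, 19.5 and 17.9 in GM +dox and 23.9, 18.2 and 15.4 in DM +dox. Without doxycycline the ranks were 4900, 2010, 5569 and 3244 in GM and 2390, 4202 and 7920 in DM, which did. The weaker region at 5.3 kb, chr2:163392507-163392768, had a peak in all 4 GM +dox libraries at ranks of 20065, 20123, 17581 and 12369, and in 2 of 3 DM +dox libraries at 22867 and 24759. It had no peak in DM no dox and 1, ranked 18571, in GM no dox. Another intron region, chr2:163364774-163365456, 33.0 kb into the gene, had a peak in all 3 DM +dox libraries and in no DM no dox library, and was weak, with ranks of 30392, 31725 and 40998.

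Ryr1, the calcium release channel, lies on the minus strand at chr7:29003344-29125179 and was the member with the weakest accessibility. None of its 9 regions was among the strongest peaks of any library. Its start was open in 3 libraries: chr7:29125112-29125283, at the start, had a peak in GM +dox replicate 1 at rank 29263, and chr7:29123790-29124020, 1.34 kb into the gene, had one in DM +dox replicates 2 and 4 at ranks 39492 and 35827. The region with most peaks, chr7:29025283-29026505, lay 99.4 kb into the gene, and had one in every library but GM no dox replicate 1, at ranks of 17161 to 32025. Its groups overlapped.

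Among all deposited peaks the Ryr1 window held 0, 2, 1 and 4 peaks in GM no dox, 7, 6, 6 and 5 in GM +dox, 1, 1 and 2 in DM no dox and 6, 4 and 6 in DM +dox. The mean was 1.75 ± 1.71 and 6.0 ± 0.82 in growth medium (exact permutation p = 0.0286, adjusted p = 0.824) and 1.33 ± 0.58 and 5.33 ± 1.15 in differentiation medium (exact permutation p = 0.1, adjusted p = 0.509). Every +dox library lay above every no dox library in both media, and per 10000 deposited peaks as well, at 0 to 0.811 against 1.19 to 1.37 in growth medium and 0.414 to 0.493 against 0.865 to 1.21 in differentiation medium. These peaks lay late in the lists. When only the 10 libraries with at least 36531 peaks were used, each cut to that length, the counts were 1 and 4 in GM no dox replicates 2 and 4 against 4, 3, 5 and 5 in GM +dox, and 2 in DM no dox replicate 4 against 3, 1 and 4 in DM +dox, so that the groups overlapped in both media. This restriction was added after the data had been seen. The plot of the genes that separated in all deposited peaks shows Ryr1 apart on both scales. Its peak number moved with list length, whose part was not tested. One of the 9 regions, chr7:29001054-29001566, is the start of Map4k1, with a peak in 1 of 4 vehicle and 4 of 4 doxycycline libraries in GM and in 1 of 3 and 3 of 3 in DM; without such starts the difference was 3.5 peaks in GM, from 4.25, and 3.33 in DM, from 4.00, and the groups still did not overlap.

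**Figure D4:**
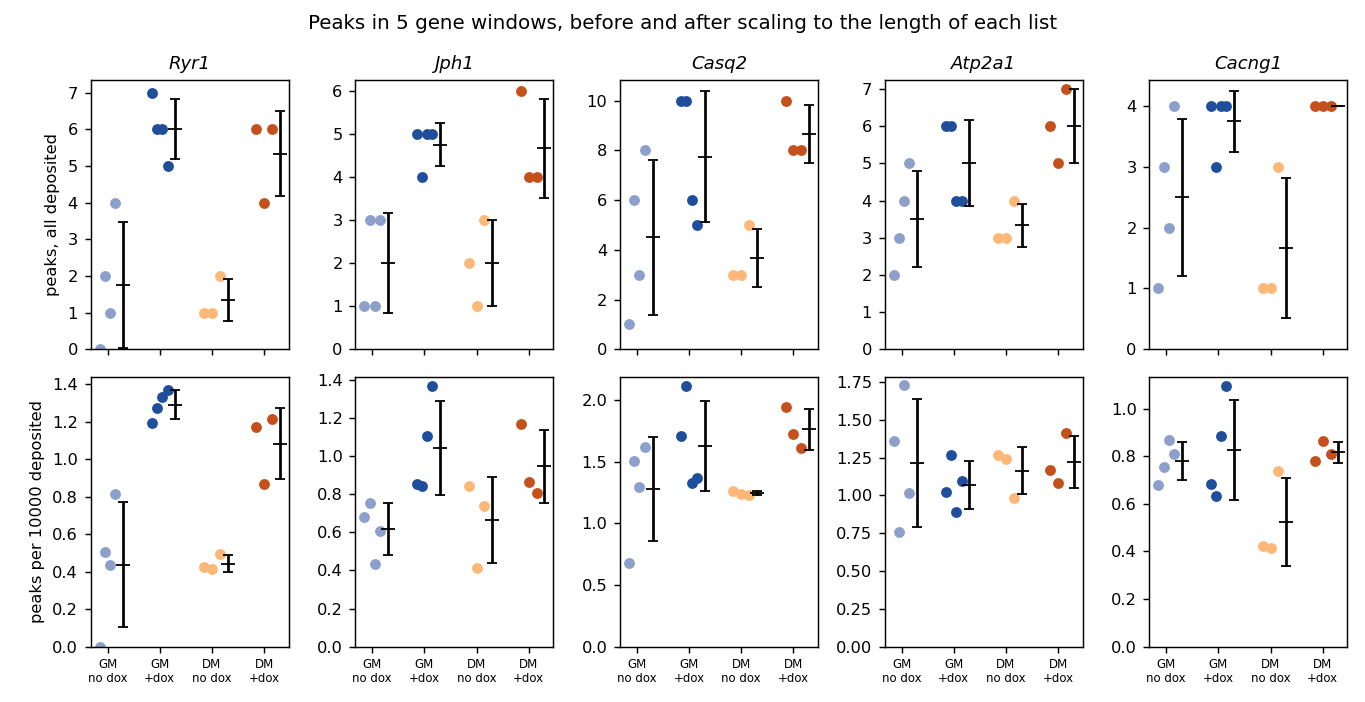
Peaks in the windows of Ryr1, Jph1, Casq2, Atp2a1 and Cacng1 in all deposited peaks (top) and per 10000 deposited peaks (bottom), by group. Points are libraries and bars are the mean ± SD (n = 4 in GM and n = 3 in DM); Ryr1 stays apart between doxycycline and vehicle on both scales, and Atp2a1 overlaps on the lower one.

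The all-or-none region of Ryr1 in differentiation medium was chr7:29043169-29043608, in an intron 81.7 kb from the start. It had a peak at ranks 31947, 38072 and 28156 in DM +dox, in none of DM no dox, and in 3 of 4 doxycycline but 0 of 4 vehicle libraries in GM. The lists of DM no dox replicates 2 and 3 end at 23690 and 24181 peaks, before those ranks. An intron region 85.4 kb from the start, chr7:29039629-29040252, ranked 28429 to 36819 in GM +dox and 43256 and 50073 in 2 of the 3 DM +dox libraries, so it was earlier in growth medium. The sequences show the most frequent region of Ryr1 and its all-or-none region with CANNTG in capitals. Neither holds CAGCTG, which says only that these letters are not in the window. The RefSeq promoter holds no CANNTG at all, whereas 66.2% of promoters do.
Ryr1 intron at 99.4 kb, chr7:29025643-29025843, plus strand: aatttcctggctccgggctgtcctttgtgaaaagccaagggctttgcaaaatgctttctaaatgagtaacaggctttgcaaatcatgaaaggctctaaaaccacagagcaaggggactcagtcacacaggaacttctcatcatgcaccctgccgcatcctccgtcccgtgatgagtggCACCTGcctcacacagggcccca
Ryr1 intron at 81.7 kb, chr7:29043367-29043567, plus strand: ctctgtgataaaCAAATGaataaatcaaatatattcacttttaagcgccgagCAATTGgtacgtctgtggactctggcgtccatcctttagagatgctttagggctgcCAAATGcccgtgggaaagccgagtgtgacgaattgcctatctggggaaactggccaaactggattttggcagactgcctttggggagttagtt
Ryr1 promoter, chr7:29125152-29125401, minus strand: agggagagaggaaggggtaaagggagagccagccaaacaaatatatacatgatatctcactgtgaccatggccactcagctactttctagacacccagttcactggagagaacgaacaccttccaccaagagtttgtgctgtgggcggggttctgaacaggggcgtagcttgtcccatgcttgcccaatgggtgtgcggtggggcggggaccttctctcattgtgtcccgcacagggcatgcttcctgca

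Cacna1s, the pore and voltage sensor of Cav1.1, lies on the plus strand at chr1:136052750-136119822. In lists of equal length its window held 0, 2, 2 and 3 peaks in GM no dox, 3, 2, 2 and 3 in GM +dox, 0, 0 and 3 in DM no dox and 2, 2 and 2 in DM +dox. None of the regions behind these peaks lay in the gene. The region 2.16 kb upstream, chr1:136050446-136051282, is within 1 kb of the start of Ascl5 and ranked 10995, 4902 and 8710 in DM +dox against 15080 and 14612 in DM no dox replicates 2 and 4, with no peak in replicate 3. Downstream of the gene, chr1:136126857-136127259, in an exon of Gm15850, ranked 9351, 7739 and 11388 in DM +dox against 16576 and 11730 in DM no dox replicates 3 and 4, with none in replicate 2. Both were earlier in every DM +dox library, and overlapped in growth medium.

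Inside Cacna1s the signal was weak. The region nearest the start, chr1:136051551-136051777, with its summit 1.14 kb upstream, had a peak in 7 libraries and none was strong. An intron region 14.1 kb into the gene, chr1:136066474-136066989, had a peak at ranks 23938, 23574 and 14776 in DM +dox and in none of DM no dox, and in 4 of 4 doxycycline and 1 of 4 vehicle libraries in GM. Its window is shown for this pattern and holds CANNTG 3 times and no CAGCTG. A second annotated start, 63.6 kb into the gene, had a peak in 2 libraries.
Cacna1s intron at 14.1 kb, chr1:136066723-136066923, plus strand: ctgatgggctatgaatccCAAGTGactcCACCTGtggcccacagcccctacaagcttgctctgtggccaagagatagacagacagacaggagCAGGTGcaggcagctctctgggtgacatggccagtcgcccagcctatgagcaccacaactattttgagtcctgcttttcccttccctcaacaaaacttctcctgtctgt

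Cacng1, the gamma subunit of Cav1.1, lies on the minus strand at chr11:107703218-107716522. Its strongest region was an intron 1.92 kb from the start, chr11:107714325-107714850, with a peak in all 14 libraries and a strong one in 10. The start itself, chr11:107716438-107716879, had a peak in 2 of 4 vehicle and 4 of 4 doxycycline libraries in GM, and in 0 of 3 and 3 of 3 in DM. It ranked 20106 to 31218 in GM +dox and 33321 to 46759 in DM +dox. It was thus open with doxycycline in every library, later in differentiation medium, and weak in all.

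A region 12.3 kb upstream, chr11:107728638-107728876, ranked 20714, 16171 and 22891 in DM +dox and 26384 in DM no dox replicate 4, and had no peak in DM no dox replicates 2 and 3, whose lists end at 23690 and 24181. It is the region of Cacng1 that ranked earlier with doxycycline in differentiation medium, and its summit window holds CAGCTG. In all deposited peaks the Cacng1 window held 1, 3, 2 and 4 peaks in GM no dox, 4, 3, 4 and 4 in GM +dox, 1, 1 and 3 in DM no dox and 4, 4 and 4 in DM +dox. The DM groups did not overlap (exact permutation p = 0.1, adjusted p = 0.509), and the difference of 2.33 peaks became 1.00 with flanks of 5 kb. In the lists of at least 36531 peaks cut to that length they overlapped, with 3 peaks in DM no dox replicate 4 against 4, 3 and 3 in DM +dox.
Cacng1 upstream at 12.3 kb, chr11:107728685-107728885, plus strand: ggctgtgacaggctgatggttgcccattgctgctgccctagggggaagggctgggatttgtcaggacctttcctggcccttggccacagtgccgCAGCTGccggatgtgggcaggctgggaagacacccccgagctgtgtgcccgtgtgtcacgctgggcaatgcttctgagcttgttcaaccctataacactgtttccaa

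Atp2a1 and Atp2a2 encode the calcium pumps SERCA1 and SERCA2, the first typical of fast fibers and the second of slow fibers, heart and most other tissues. Atp2a1, on the minus strand at chr7:126445858-126463108, held 2 or 3 strong peaks in each of the 14 libraries, and none of them lay in the gene. One was the start of Rabep2, chr7:126428621-126429626, and another a region 19.4 kb upstream of Atp2a1, chr7:126482461-126482830, both strong in all 14 libraries. The region closest to the Atp2a1 start, chr7:126464076-126464401, 1.19 kb upstream, had a peak at ranks 36908, 28329 and 20512 in DM +dox and in none of DM no dox, and in 2 of 4 doxycycline and 1 of 4 vehicle libraries in GM. Its window holds CAGCTG.
Atp2a1 upstream at 1.19 kb, chr7:126464202-126464402, plus strand: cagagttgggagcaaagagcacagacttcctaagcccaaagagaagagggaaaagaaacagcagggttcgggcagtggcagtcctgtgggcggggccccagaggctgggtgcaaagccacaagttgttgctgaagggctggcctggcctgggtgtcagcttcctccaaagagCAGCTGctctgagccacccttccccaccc

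Over all deposited peaks Atp2a1 had 2, 3, 4 and 5 peaks in GM no dox, 6, 6, 4 and 4 in GM +dox, 3, 3 and 4 in DM no dox and 6, 5 and 7 in DM +dox. The mean was 3.33 ± 0.58 and 6.0 ± 1.0 in the DM groups, which did not overlap (exact permutation p = 0.1, adjusted p = 0.509). Per 10000 peaks they did overlap, at 0.985 to 1.27 and 1.08 to 1.41. With the start sites of other genes left out the difference in DM was 1.67 peaks in place of 2.67. Atp2a2, on the minus strand at chr5:122453513-122502225, differed from Atp2a1 in having an open start.

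The start region of Atp2a2, chr5:122501772-122502754, had a peak in every library but GM no dox replicate 1. It was strong in 0 of 4 vehicle and 3 of 4 doxycycline libraries in GM and in 2 of 3 and 3 of 3 in DM. It ranked 24309, 18911 and 17635 in GM no dox replicates 2 to 4 and 14360, 18659, 10585 and 9879 in GM +dox. In differentiation medium it ranked 12779, 11096 and 17007 without doxycycline and 13534, 9635 and 9434 with it, so the doxycycline and vehicle groups overlapped in both media. Past the gene's end, chr5:122447602-122448237 had a peak in all 14 libraries and ranked 5381, 627, 2375 and 8409 in GM +dox and 8574, 14718 and 13654 in DM +dox, later in differentiation medium with no overlap. Without doxycycline the same region ranked 5384 to 15187 in GM and 9102 to 17908 in DM, with overlap.

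Casq1 and Casq2 encode calsequestrins, the calcium-binding proteins of the reticulum, Casq1 in fast skeletal fibers and Casq2 in heart and slow fibers. Casq1, on the minus strand at chr1:172209894-172219868, had 0 or 1 strong peak per library. The region at its start, chr1:172220444-172220871, 727 bases upstream, had a peak in 10 libraries, at a best rank of 11988 in DM +dox replicate 2, and was strong in 3. It was found in 2 of 4 vehicle and 4 of 4 doxycycline libraries in GM and in 1 of 3 and 3 of 3 in DM. The other frequent region of the window is the start of Pea15a.

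Casq2, on the plus strand at chr3:102086415-102146514, had 12 regions and a strong peak in 2 libraries alone, GM no dox replicates 1 and 3. Its window held 1, 6, 3 and 8 deposited peaks in GM no dox and 10, 10, 6 and 5 in GM +dox, which overlapped. In differentiation medium it held 3, 3 and 5 without doxycycline and 10, 8 and 8 with it, means of 3.67 ± 1.15 and 8.67 ± 1.15 (exact permutation p = 0.1, adjusted p = 0.509). The DM groups stood apart also per 10000 peaks, at 1.23 to 1.27 against 1.62 to 1.95. In the lists of at least 36531 peaks cut to that length they overlapped. There the window held 4 peaks in DM no dox replicate 4 against 4, 8 and 4 in DM +dox. Of the 8 all-or-none regions in differentiation medium, 3 lay here: chr3:102069211-102069584 and chr3:102081852-102082315 upstream, at 17.1 and 4.32 kb, and chr3:102112162-102112695 in an intron at 26.0 kb. They ranked between 15246 and 42116 in DM +dox. In growth medium they had a peak in 3, 4 and 3 of the 4 GM +dox libraries and in 0, 1 and 2 of the 4 GM no dox libraries. No peak lay at the gene's own 5′ end. The only annotated start of Casq2 with a region nearby was an internal one, 56.7 kb into the gene, with a peak in 10 libraries.

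Trdn encodes triadin, which links calsequestrin to the release channel. At 396 kb, chr10:33080554-33476709, it was the longest of the 10 genes and had 3 regions, with 0 to 3 deposited peaks in each library. The main one was an intron region 99.5 kb into the gene, chr10:33179644-33180444, with a peak in every library but GM no dox replicate 1. It ranked 6383, 15149 and 13228 in DM +dox, 11015, 21158 and 16955 in DM no dox, 29876, 16460, 20129 and 11943 in GM +dox and 23287, 16389 and 32421 in GM no dox replicates 2 to 4. The groups overlapped in every comparison. A region at an internal start, 116 kb into the gene, had a peak in 3 libraries, and no peak lay within 1 kb of the first start.

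Base composition at the starts was compared with their accessibility. Over the 500 bases around the annotated gene start, the ratio of observed to expected CpG was 0.903 at Jph1 and 1.05 at Atp2a2 and at most 0.472 at the other 8 genes. Of all protein-coding genes, 49.0% had a ratio of 0.6 or more, and 30.1% of those had a strong peak at the start in all 14 libraries, against 3.56% of the genes with a lower ratio. Jph1 and Atp2a2 had a strong peak at the gene start in 14 and 8 libraries. Casq1 had one in 3, and the remaining 7 members had none.

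The 21 other genes of the pathway include the auxiliary proteins of the release channel, the potassium channels of the reticulum and store-operated entry. None of them separated its groups in lists of equal length, in any of the 4 comparisons. Few genes did: 0.368% and 2.18% of all genes with doxycycline in GM and DM, and 2.43% and 2.47% between media without and with it. With doxycycline 3 of the 15 tested had a higher mean and 7 a lower one in growth medium, against 33.7% and 32.9% of all genes. In differentiation medium 3 of 16 were higher and 6 lower, against 30.9% and 25.8%. The 10 genes gave 7 and 1, and 6 and 1. The difference between the lists was not tested. In all deposited peaks Srl, which encodes sarcalumenin of the reticulum, and Tmem38b, a counter-ion channel of the reticulum, separated in differentiation medium, with 7.0 ± 2.0 against 12.0 ± 1.73 peaks at Srl and 0.33 ± 0.58 against 2.33 ± 0.58 at Tmem38b (exact permutation p = 0.1, adjusted p = 0.509 for both). Among 8 paralogs used mainly outside skeletal muscle none separated in lists of equal length, against the same shares of all genes. In all deposited peaks 4 did in differentiation medium: Ryr2, Ryr3, Cacna1c and Cacna1d. At Ryr3 the mean went from 0.67 ± 0.58 to 3.33 ± 0.58 peaks and at Ryr2 from 1.67 ± 0.58 to 3.67 ± 0.58, so 2 of 20 pathway genes, 4 of 8 paralogs and 5 of 10 members separated there, where 19.7% of all genes did. The 21 genes and the paralogs were chosen with earlier results of these data known.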

How the data were processed

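ATAC-seq peak lists of 16 C2C12 iMyoD1 libraries (4 groups of 4 replicates labelled as biological replicates) were analysed. Per the methods of the study the reads were processed with nf-core/atacseq 2.1.2, and the submitters' processing notes name MACS2, deepTools and mm10; peaks were called per library. The deposited lists give, for each peak, fold enrichment over background (a linear ratio) and the −log10 p and −log10 q values that the authors' peak caller wrote. Column 8, −log10 p, ranked the peaks, and no read counts were used. Where −log10 p was at most 30, fold and p together gave whole pileups within 0.002, from which background coverage was recovered; its precision limits weak peaks most, and fragments are not independent molecules.

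Peaks overlapping by at least 1 bp were merged across the 14 kept libraries. Windows were GENCODE M21 gene bodies with 20 kb on each side. Strong peaks are the 14710 of each library with the highest −log10 p, a number set by the list of GM no dox replicate 1, and a start is any annotated transcript start. Peak numbers per gene were compared by two-sided exact permutation tests over libraries for every protein-coding gene with a peak in the comparison, Benjamini-Hochberg adjusted over all of them, with Python 3.11.15, numpy 2.4.6, pandas 2.3.3 and scipy 1.17.1. The scripts were tested on simulated data. The p-values measure the spread between these libraries. No lists were identical, and the highest overlap of any pair of kept lists was a Jaccard index of 0.760.

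Regions were to be named where they were all-or-none in lists of equal length, of which there were none, or lay within 1 kb of a member's start, and otherwise where they had a peak in most libraries; all others named were chosen after their values were seen. Motifs were searched within 100 bases of the highest summit on both strands. RefSeq promoters (GRCm38.p6) matched 6 of the 10 genes; Jph1, Atp2a2, Cacng1 and Trdn had no entry. The genes and lists were chosen with earlier results of these data known. Same-numbered libraries deviated together with correlations of 0.0456 to 0.286; every pair exceeded 0.1 only between DM +dox and GM +dox (0.286, 0.102 and 0.235), and the tests were unpaired throughout, with the block as an alternative in all 4 comparisons. Alternatives were other list lengths, ranking by fold, a stricter q, all 16 libraries, flanks of 5 and 50 kb, summit overlap, exclusion of other genes' starts, omission of each replicate and a replicate block; the list length without GM no dox replicate 1, ranks, scaling per 10000 peaks, folds and long lists were added after the data had been seen. The result of 1 further marker gene is not reported here.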

Additional observations from a re-analysis of the deposited data

Results flagged for a closer look

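Of 44 groups of 4 libraries tested, which cover the 10 genes and their totals in GM no dox and GM +dox, 11 held a library that lay far from the other 3. The rule expects about 1 in 20 for values without ties, a rate that does not hold for small whole numbers. Where 3 libraries tie, any difference in the other library is flagged. Most of the 11 are a step of 1 peak beside tied values. In GM no dox, lists of equal length, replicate 4 had 0 peaks at Atp2a2 and 0 at Cacng1, where the other 3 libraries had 1 at each. Replicate 1, the shortest list, had 1 peak at Casq1 against 0, and 4 at Jph2 against 2. In GM +dox replicate 2 had 1 peak at Atp2a2 against 2, replicate 3 had 4 at Jph2 against 3, and replicate 4 had 1 at Trdn against 0 and 2 at Jph1 against 1. In all deposited peaks of GM +dox, replicate 1, the longest list, had 10 peaks at Cacna1s against 7, and replicate 2 had 3 at Cacng1 against 4 and 4 at Jph1 against 5.

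Of the libraries that no comparison used, DM +dox replicate 1 had 10 peaks in the 10 windows, among 14236 in its list, and DM no dox replicate 1 had 0 among 1287.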

How the results depend on the processing

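With all deposited peaks the difference in the total over the 10 windows was 22.25 peaks for doxycycline in GM, 26.7 in DM and −2.42 for DM against GM without doxycycline. All-or-none regions in DM with doxycycline then numbered 8, and members without overlap 2 in GM and 5 in DM. A −log10 q of at least 2 gave 22.25, 26.3 and −2.42 peaks, with 8 regions and 2 and 5 members. A list of 7355 peaks gave 0.75 peaks for doxycycline in GM, −1.25 for DM against GM without it, and 1 all-or-none region in DM, the Jph2 region at 52.8 kb. Ranking by fold gave 5.33 peaks for doxycycline in DM, with 2 all-or-none regions and 2 members, Cacna1s and Jph1, 2.5 for DM against GM with doxycycline, and 1 region with separated ranks without it. Flanks of 50 kb gave 5 peaks for doxycycline in DM, 1.75 and 2.75 for DM against GM without and with it, and 1 region with separated ranks without it, and flanks of 5 kb left 2 such regions for doxycycline in DM. All 16 libraries gave −2.25 for DM against GM without doxycycline. At the length of the second shortest list, without GM no dox replicate 1, the values were 4.67 for doxycycline in DM, with 1 all-or-none region and 1 member, Cacng1, and −1.33 with 1 region for DM against GM without it. The cause was not tested, apart from list length, which the full lists change by construction. Apart from the full lists, no share of all genes or regions was computed for these settings or for leaving out a library. The members and regions called there have no background to be read against. The replicate block gave 3 and 2.67 peaks for doxycycline in GM and DM, and 0.667 and −0.333 for DM against GM without and with it, with 0 members separated throughout, so it changed no call. Leaving out 1 library, which makes separation easier by construction, gave totals of 2.17 to 3.83 and 1.33 to 3.83 for doxycycline in GM and DM (1.33 without DM +dox replicate 2), and of −0.5 to 0.667 and −1.5 to 1 for DM against GM without and with doxycycline. In the same order all-or-none regions numbered 0 to 1, 0 to 2, 0 to 1 and 0 to 1, and regions with separated ranks 0 to 2, 6 to 10, 0 to 5 and 6 to 14. Members without overlap numbered 0 to 1 in all 4 comparisons: Atp2a2 without GM +dox replicate 2, Jph2 without GM no dox replicate 1, Cacna1s and Atp2a2 without DM no dox replicate 4, and Jph2 without DM +dox replicate 2. Short lists limit all of this: GM no dox replicate 1 sets the equal length, and a weak region cannot be told from an absent one where a list ends early.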
